A study of Mus with 8 samples.

Results

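Glycolysis is described here through 10 transcripts of mouse bone-marrow monocytes, the transcript of the glucose transporter GLUT1 and those of 9 enzymes between glucose and lactate. The members were given as Ensembl IDs paired with symbols, and all 10 were found among the 17640 gene IDs of the count table. In order of the pathway they are Slc2a1 (ENSMUSG00000028645), Hk2 (ENSMUSG00000000628), Gpi1 (ENSMUSG00000036427), Pfkl (ENSMUSG00000020277), Aldoa (ENSMUSG00000030695), Tpi1 (ENSMUSG00000023456), Pgk1 (ENSMUSG00000062070), Eno1 (ENSMUSG00000063524), Pkm (ENSMUSG00000032294) and Ldha (ENSMUSG00000063229).

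The study set monocytes of mice with the activating Jak2 V617F knock-in, a driver of myeloproliferative neoplasm, against monocytes of control mice. It asked whether a stiff elastic matrix changes the cells relative to a stiff viscous one. The 4 groups were Jak2 V617F Vav-iCre cells in elastic matrix, Jak2 V617F Vav-iCre cells in viscous matrix, Vav-iCre control cells in elastic matrix and Vav-iCre control cells in viscous matrix, with 2 libraries each, all on C57BL/6. All 4 groups carried the Vav-iCre transgene, a Cre recombinase active in blood-forming cells. All cells were enriched by negative selection and sampled on day 3. The medium held PGE2 at 100 ng/mL, IL4 at 200 ng/mL and GM-CSF at 100 ng/mL. The ages of the mice are not given in the sources used here. Each library title ends in a number that 1 elastic and 1 viscous library of a genotype share, and libraries with a common number are called a set here. Jak2 V617F set A is 8_Jak2_NbTz_6061 and 5_Jak2_VLVG_6061, and Jak2 V617F set B is 7_Jak2_NbTz_6065 and 6_Jak2_VLVG_6065, in each case with the elastic library first. Control set A is 4_WT_NbTz_6060 and 2_WT_VLVG_6060, and control set B is 3_WT_NbTz_6064 and 1_WT_VLVG_6064. What the number marks is not stated, so the spread behind each p-value is that between libraries and may be technical. The letters tie no Jak2 V617F set to a control set. The 2 gels may differ in more than elasticity, and such differences cannot be told apart.

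Glycolysis converts glucose to pyruvate in the cytosol, and lactate dehydrogenase can then reduce pyruvate to lactate, which restores the cofactor that glycolysis consumes. In macrophages and dendritic cells the pathway is known to be raised on activation. Many of its genes are textbook targets of the hypoxia-inducible factor, which acts at low oxygen and in activated myeloid cells. Enzyme activity also depends on allosteric control and on the protein level, so transcripts describe only 1 layer of the pathway.

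The 8 libraries held between 30632355 and 38408851 counts, and 16350 to 16827 gene IDs had at least 1 count. The members had at least 3517 counts in every library, so the counting error of a single value was at most 1.69% (Poisson, counting error only), and all 10 passed the filter on low counts. Levels are given as CPM, counts per 1e+06 counts of the TMM-scaled library. CPM are not corrected for transcript length, so levels are compared between libraries and not between genes. RefSeq lists 3 pseudogenes named after each of Aldoa, Pgk1 and Ldha, and reads shared with such copies make those counts less certain. Copies under other names were not counted, so other members may be affected too. The pair of libraries of control set A stood apart from the other 6 libraries for most members, and comparisons between groups are given with and without them. These 2 libraries held 30632355 counts in elastic and 35011427 in viscous matrix, and the viscous one had the fewest detected IDs (16350). The Jak2 transcript was not analysed here, and counts per gene cannot show a point mutation. Markers of monocytes or of other cell types were not analysed here, because the IDs are not paired with names. In such bulk samples, fewer cells of a type and less RNA per cell cannot be told apart.

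Slc2a1 encodes GLUT1, the main glucose carrier of many blood cells, and lies at chr4:119108745-119137330 (GRCm38). Its levels in Jak2 V617F cells were 503.8 CPM (set A) and 453.5 CPM (set B) in elastic matrix, and 418.3 and 436.2 CPM in viscous matrix. For control set A the values were 212.1 CPM in elastic and 163.0 CPM in viscous matrix, and control set B had 506.5 and 421.7 CPM. Control set B thus lay within or just above the range of the Jak2 V617F libraries, while both set A libraries lay far below every other library. Over all 8 libraries the highest level was 3.11 times the lowest, the widest range of the 10 transcripts, against 1.21 times over the 6 libraries other than control set A.

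Hk2, the hexokinase that phosphorylates glucose on entry and so traps it in the cell (chr6:82725025-82774454), had the same layout. Levels were 336.4 and 332.6 CPM in elastic and 312.5 and 310.0 CPM in viscous matrix in Jak2 V617F cells (sets A and B). They were 197.7 CPM in elastic and 172.3 CPM in viscous matrix in control set A, and 351.3 and 347.7 CPM in control set B. Control set B was above all 4 Jak2 V617F libraries, control set A was below all of them, and the 6 libraries other than control set A spanned only 1.13-fold.

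The next 3 enzymes carry glucose 6-phosphate to the triose phosphates, and each had a layout of its own. Gpi1, which converts glucose 6-phosphate to fructose 6-phosphate (chr7:34201327-34230336), had 607.4 and 564.7 CPM in elastic and 686.4 and 601.8 CPM in viscous matrix in Jak2 V617F cells. In elastic and viscous matrix, control set A had 564.1 and 554.2 CPM, and control set B had 667.5 and 519.3 CPM. Gpi1 had the narrowest range of the 10, 1.32-fold over all 8 libraries, and control set A was the lower control library in elastic matrix and the higher one in viscous matrix.

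Pfkl encodes the liver-type subunit of phosphofructokinase, which catalyses the committed step of glycolysis (chr10:77986947-78009807). It had 212.4 and 193.8 CPM in elastic and 223.5 and 163.7 CPM in viscous matrix in Jak2 V617F cells. Control set A had 113.6 CPM in elastic and 100.4 CPM in viscous matrix, and control set B had 221.5 and 144.1 CPM. Both set A libraries were again the lowest, but control set B in viscous matrix was also below every Jak2 V617F library.

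Aldoa, the aldolase that splits fructose 1,6-bisphosphate (chr7:126795234-126800994), ran the other way. It had 1107 and 1004 CPM in elastic and 1186 and 1038 CPM in viscous matrix in Jak2 V617F cells. For control set A the values were 1201 CPM in elastic and 1076 CPM in viscous matrix, and control set B had 1028 and 845.8 CPM. The highest of the 8 levels was that of control set A in elastic matrix and the lowest that of control set B in viscous matrix.

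Tpi1, which interconverts the 2 triose phosphates (chr6:124810586-124814158), had 569.1 and 476.3 CPM in elastic and 481.9 and 499.8 CPM in viscous matrix in Jak2 V617F cells. In elastic and viscous matrix, control set A had 283.8 and 212.0 CPM, and control set B had 555.9 and 426.2 CPM. The 2 libraries of control set A were below the other 6, which spanned 1.34-fold.

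In the ATP-yielding part of the pathway, Pgk1, whose enzyme makes the first ATP of glycolysis (chrX:106187100-106203699), had 579.7 and 542.6 CPM in elastic and 494.8 and 592.1 CPM in viscous matrix in Jak2 V617F cells. Control set A had 304.0 CPM in elastic and 269.6 CPM in viscous matrix, and control set B had 578.2 and 467.2 CPM. Only the 2 libraries of control set A fell outside 467.2 to 592.1 CPM.

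Eno1, the enolase that forms phosphoenolpyruvate (chr4:150236708-150248879), had 1531 and 1347 CPM in elastic and 1467 and 1483 CPM in viscous matrix in Jak2 V617F cells. For control set A the values were 1098 CPM in elastic and 845.0 CPM in viscous matrix, and control set B had 1608 and 1258 CPM. Control set B gave both the highest and the lowest of the 6 libraries other than control set A.

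Pkm encodes the muscle-type pyruvate kinase, which makes pyruvate and the second ATP (chr9:59656576-59679372). Counts per gene do not separate its splice forms. It had 2237 and 2046 CPM in elastic and 2109 and 2083 CPM in viscous matrix in Jak2 V617F cells. In elastic and viscous matrix, control set A had 1671 and 1270.3 CPM, and control set B had 2281 and 1823 CPM. The 4 Jak2 V617F libraries lay within the span of control set B, and control set A lay below it.

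Ldha, the lactate dehydrogenase subunit that favours lactate formation (chr7:46842274-46855627), had 921.7 and 742.8 CPM in elastic and 747.9 and 855.1 CPM in viscous matrix in Jak2 V617F cells. Control set A had 556.4 CPM in elastic and 390.0 CPM in viscous matrix, and control set B had 875.7 and 712.1 CPM. The order within Jak2 V617F cells depended on the number, with elastic matrix higher in set A and viscous matrix higher in set B.

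**Figure D1:**
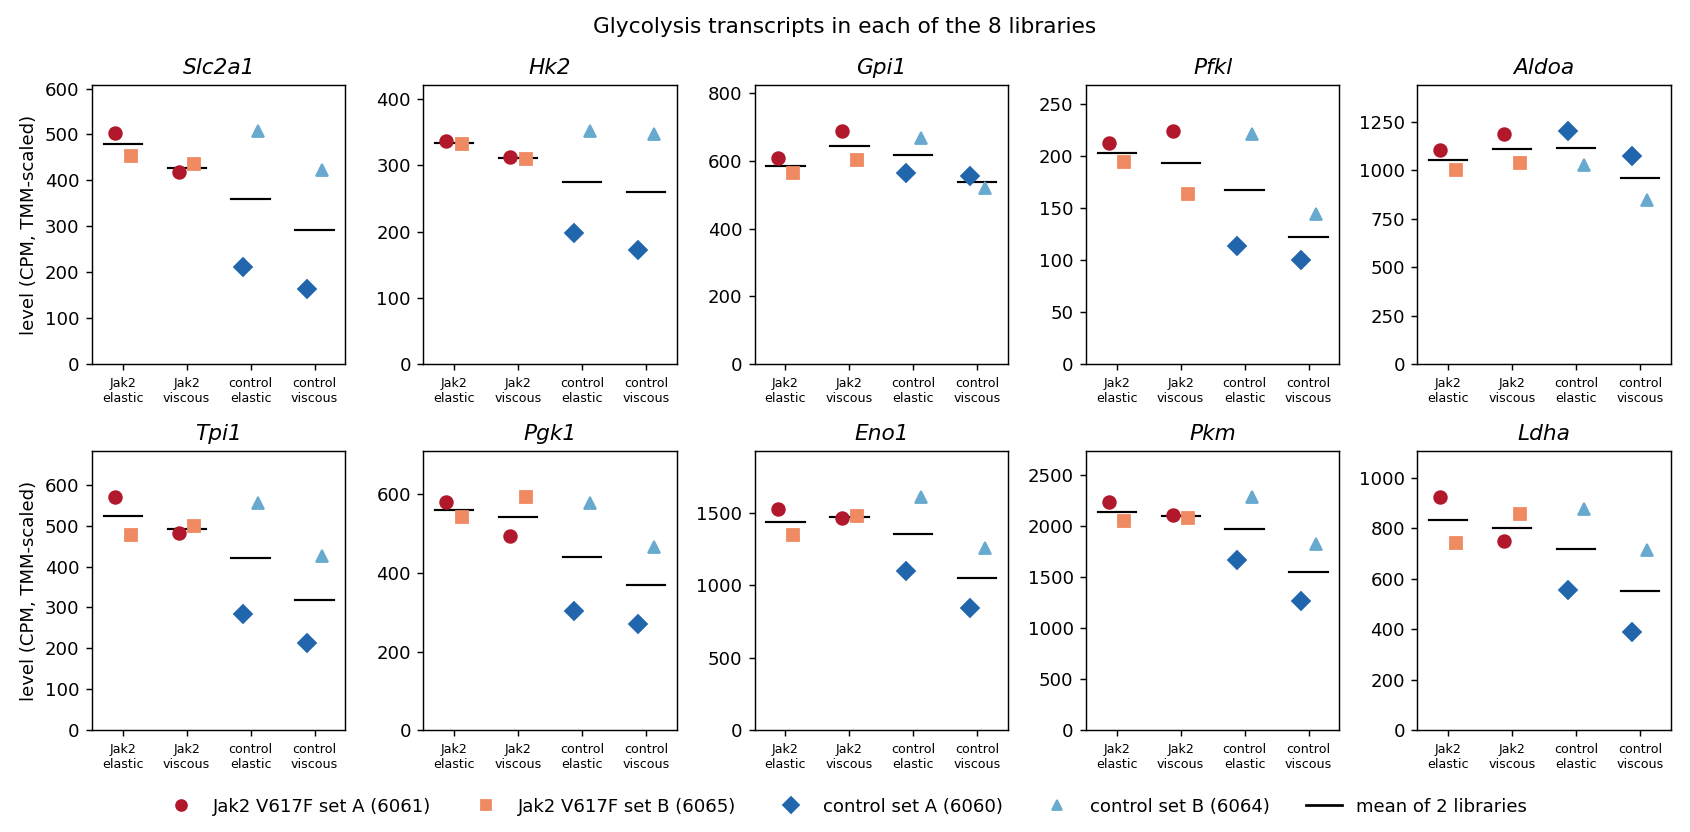
Level of each of the 10 transcripts (CPM, TMM-scaled, linear axis from 0) in the 8 libraries, by genotype and matrix, with a symbol for each title number and a line at the mean of the 2 libraries of a group. Control set A is the lowest point of both control groups for 8 of the 10 transcripts, while for Aldoa it is the highest point of both.

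The 2 control numbers differed widely in most of these transcripts. In log2 CPM, set A minus set B in control cells had a median over the members of −0.74 in elastic and −0.68 in viscous matrix, against medians of 0.0072 and −0.012 over all 14785 IDs tested. The set A level of Slc2a1 was 41.9% of the set B level in elastic and 38.7% in viscous matrix. For Tpi1 it was 51.1% and 49.7%, for Hk2 56.3% and 49.6%, and for Pgk1 52.6% and 57.7%. The gap was smaller for Pkm, at 73.3% and 69.7%, and for Eno1, at 68.3% and 67.2%. For Aldoa the set A level was 116.8% of the set B level in elastic and 127.2% in viscous matrix, and for Gpi1 it was 84.5% and 106.7%. These percentages compare single libraries and carry no replicate error.

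In Jak2 V617F cells, set A was lower than set B by over 0.5 log2 CPM for 0 of 10 members in elastic (9.35% of all IDs), in viscous (10.7%) and in both matrices (1.51%), and the largest difference was 0.45 for Pfkl in viscous matrix. In control cells in elastic matrix, 7 of the 10 members were lower in control set A than in control set B by over 0.5 log2 CPM, against 16.2% of all IDs. In viscous matrix 8 were, against 17.4%. The 7 that were lower in both matrices (8.46% of all IDs) were Slc2a1, Hk2, Pfkl, Tpi1, Pgk1, Eno1 and Ldha. These shares describe the libraries, and the difference between numbers was not tested.

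**Figure D2:**
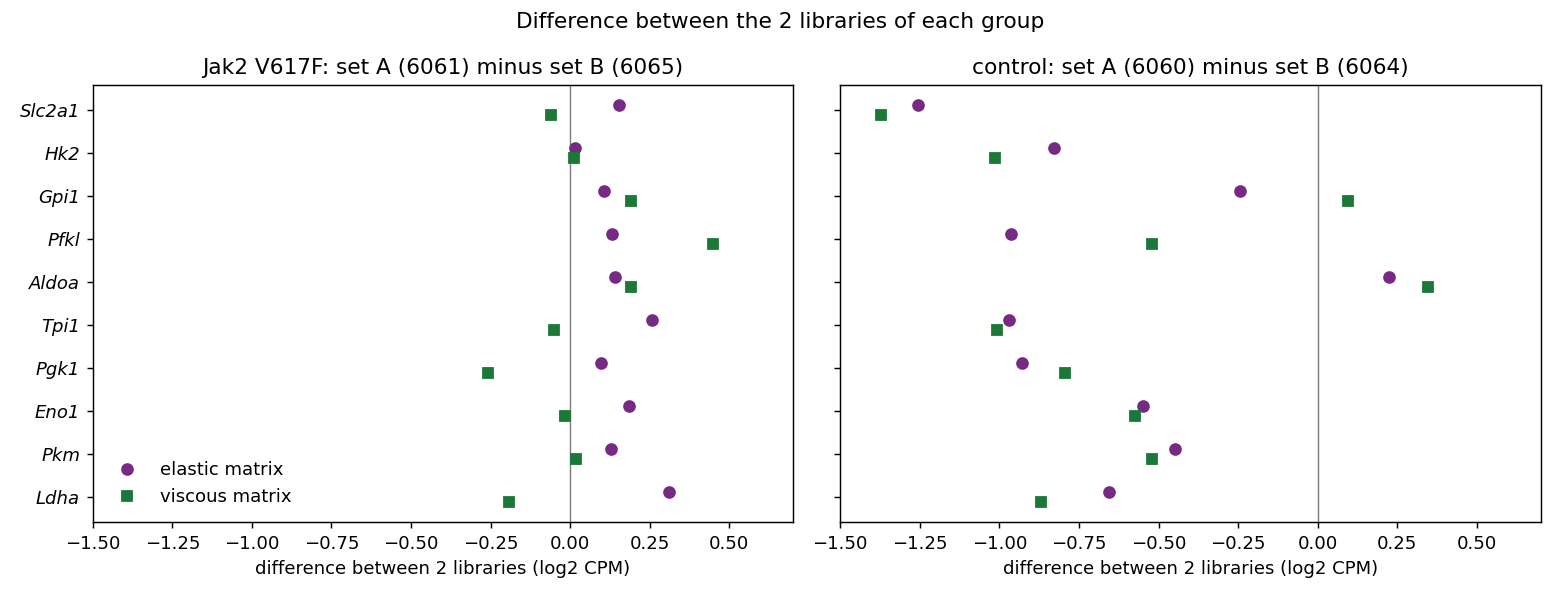
Difference in log2 CPM between the 2 libraries of each group, set A minus set B in Jak2 V617F cells (left) and set A minus set B in control cells (right), with circles for elastic and squares for viscous matrix. In Jak2 V617F cells the points lie between −0.26 and 0.45, and in control cells they reach −1.37 for Slc2a1, with Gpi1 and Aldoa between −0.24 and 0.35.

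Shares and ratios taken within a library do not depend on how libraries are scaled. Aldoa took 19.4% of the members' own counts in control set A in elastic and 21.3% in viscous matrix, against 11.9% to 14.6% in the other 6 libraries. Gpi1 took 9.10% and 11.0% in control set A, against 7.06% to 8.45% elsewhere. Slc2a1 took 3.42% and 3.23% in control set A, against 5.15% to 6.05% elsewhere. The ratio of Slc2a1 to Aldoa counts was 0.177 and 0.151 in control set A and 0.353 to 0.499 in the other libraries. The ratio of Ldha to Pkm counts, the last 2 steps, was 0.333 and 0.307 in control set A and 0.355 to 0.412 elsewhere. The ratio of Eno1 to Pkm counts, neighbouring steps, did not separate control set A from the other 6 libraries. It was 0.657 and 0.665 in control set A and 0.658 to 0.712 elsewhere.

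As a description of all 8 libraries, the sum of squares of log2 CPM was divided among genotype, title number within each genotype, matrix and the rest. The control number held a median of 48.2% of it over the members, against 22.1% over all IDs tested, and between 39.3% (Pfkl) and 75.9% (Hk2) for every member but Gpi1 (4.21%). Genotype held a median of 29.9%, against 14.9%. Matrix held 6.35%, against 8.06%, and the Jak2 V617F number 0.78%, against 3.44%. In this division set A also enters the genotype share, since it is part of the control mean. The division needs both control sets, so it has no version without set A.

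Elastic and viscous matrix were compared first within Jak2 V617F cells. The median log2 fold change was 0.05 (−0.011 over all IDs), with 7 members above 0 (47.9% of all IDs) and values from −0.14 for Gpi1 to 0.16 for Slc2a1. Slc2a1 averaged 478.6 ± 35.6 CPM in elastic and 427.3 ± 12.6 CPM in viscous matrix (SD, n = 2), and its interval ran from −1.09 to 1.42. Hk2 averaged 334.5 ± 2.70 CPM in elastic and 311.2 ± 1.74 CPM in viscous matrix (SD, n = 2). These were the 2 of 10 members whose elastic libraries both lay above both viscous ones (19.1% of all IDs), and the same 2 were higher in elastic matrix within both numbers (25% of all IDs). Over all 10 members, 7 were higher in elastic matrix in set A and 3 in set B. The direction rested on single libraries: the median was −0.039, with 3 of 10 members above 0, without Jak2 V617F set A in elastic matrix, and 0.11 without Jak2 V617F set B in elastic matrix. It was 0.033 without Jak2 V617F set A in viscous matrix, and −0.058 without both libraries of Jak2 V617F set A, against 0.11 without both of set B. The edgeR adjusted p was 1 for every member.

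In control cells all 10 members had a fitted log2 fold change above 0 (50.2% of all IDs did), with a median of 0.33 against 0.0011 over all IDs. None passed the test. The values ran from 0.08 for Hk2 to 0.45 for Pfkl. Eno1 averaged 1353 ± 360.5 CPM in elastic and 1051 ± 292.0 CPM in viscous matrix (SD, n = 2), a log2 fold change of 0.36 (SE 0.28, 95% interval −0.31 to 1.04). Pkm averaged 1976 ± 431.1 CPM in elastic and 1547 ± 390.9 CPM in viscous matrix (SD, n = 2), with a log2 fold change of 0.35 (SE 0.27, 95% interval −0.29 to 1.00). The edgeR adjusted p was 0.98 to 0.99 for the 10 members.

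Elastic matrix was above viscous matrix within each control number for all 10 members, as it was for 29.1% of all IDs. The median difference was 0.29 log2 CPM in set A and 0.32 in set B. Ldha was higher in elastic matrix by 0.51 log2 CPM in set A and 0.30 in set B, and Hk2 by 0.20 and 0.015. The libraries of the 2 matrices still overlapped for 9 of 10 members in control cells. Gpi1 alone did not overlap (1 of 10, against 13.1% of all IDs), with 564.1 and 667.5 CPM in elastic and 554.2 and 519.3 CPM in viscous matrix. Without both libraries of control set A the median in control cells was 0.32, and without both of control set B it was 0.28. Each of these leaves 1 control library per matrix. Leaving out a single library moved the median far more. Such a fit sets 1 control set in 1 matrix against both sets in the other, so the difference between sets enters it. The same holds for the average over both genotypes and for the difference of the matrix effects. The control median was −0.044 (5 of 10 members above 0) without control set B in elastic matrix. It was 0.058 (6 above 0) without control set A in viscous matrix. It was 0.70 without control set B in viscous matrix and 0.64 without control set A in elastic matrix.

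Averaged over both genotypes, all 10 members were above 0 (49% of all IDs), with a median log2 fold change of 0.18 and values from 0.03 for Gpi1 to 0.26 for Pfkl (SE 0.24, edgeR adjusted p = 0.94). For 0 of 10 members did all 4 elastic libraries lie above all 4 viscous ones, as they did for 2.07% of all IDs. With 1 library left out the median ranged from −0.02, without control set B in elastic matrix, to 0.39, without control set B in viscous matrix. It was 0.32 without control set A in elastic matrix, 0.035 without control set A in viscous matrix and 0.18 without both. Without both libraries of Jak2 V617F set A it was 0.10.

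The difference of the matrix effects, Jak2 V617F minus control, asks whether the mutation alters the response to the matrix. It was below 0 for 9 of 10 members, Hk2 being the other, where 45.8% of all IDs were above 0. The median was −0.31 (−0.029 over all IDs). The value for Gpi1, which varied least between replicates, was −0.33 (SE 0.24, 95% interval −0.91 to 0.25). That for Eno1 was −0.40 (SE 0.40, 95% interval −1.36 to 0.56). The edgeR adjusted p was 1 for every member, and both 0 and −0.5 log2 units lie inside these 2 intervals. The median was −0.67 without control set B in viscous matrix and 0.11 without control set B in elastic matrix. It was −0.61 without control set A in elastic matrix, −0.021 without control set A in viscous matrix and −0.29 without both. It was −0.20 without Jak2 V617F set B in elastic matrix. The control libraries enter this value and the control comparison alike, so these values are not independent.

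**Figure D3:**
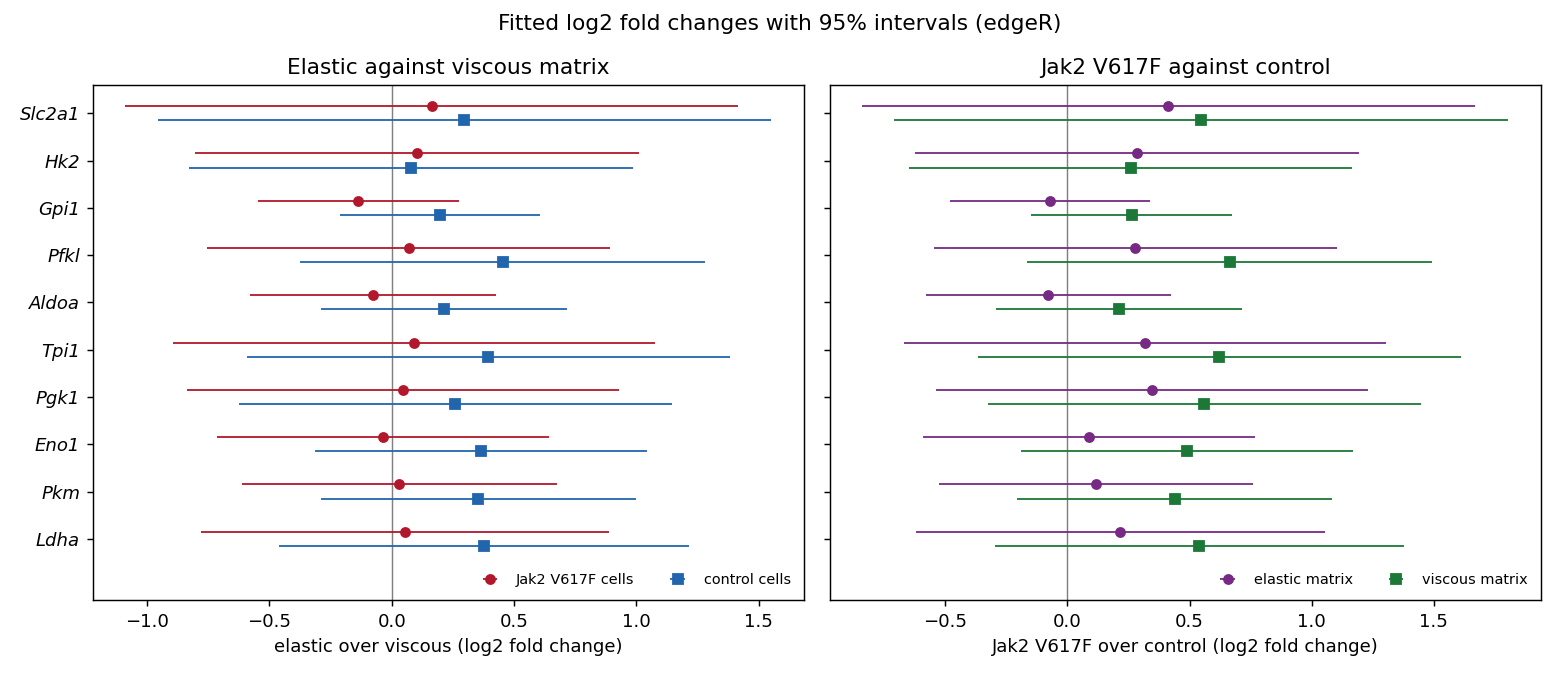
Fitted log2 fold changes (edgeR, points) with 95% intervals (lines) for elastic over viscous matrix in Jak2 V617F and control cells (left) and for Jak2 V617F over control in elastic and viscous matrix (right). All intervals include 0, and those of Gpi1 and Aldoa are the narrowest.

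Jak2 V617F and control cells were then compared within each matrix, which asks how the mutation alters these transcripts. In elastic matrix 8 members were above 0 (48.4% of all IDs), with a median of 0.25 (−0.010 over all IDs). Slc2a1 had the largest value, 0.41 (SE 0.52, 95% interval −0.84 to 1.67), from 478.6 ± 35.6 CPM in Jak2 V617F and 359.3 ± 208.2 CPM in controls (SD, n = 2). Gpi1 and Aldoa were at −0.07 and −0.08. For 0 of 10 members did the genotypes separate with Jak2 V617F higher, as they did for 17.2% of all IDs. The edgeR adjusted p was 0.94 to 0.98 for the 10 members.

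In viscous matrix all 10 members had a fitted value above 0 (48.7% of all IDs did), with a median log2 fold change of 0.51 against −0.009 over all IDs, and none passed the test. Pfkl averaged 193.6 ± 42.3 CPM in Jak2 V617F and 122.2 ± 30.9 CPM in controls (SD, n = 2). Its log2 fold change of 0.66 (SE 0.35, 95% interval −0.17 to 1.49) was the largest and had an edgeR adjusted p of 0.66. Tpi1 averaged 490.8 ± 12.6 CPM in Jak2 V617F and 319.1 ± 151.5 CPM in controls (SD, n = 2), with a log2 fold change of 0.62 (SE 0.41). Both Jak2 V617F libraries lay above both control libraries for 7 of 10 members, Gpi1, Pfkl, Tpi1, Pgk1, Eno1, Pkm and Ldha, as they did for 18.6% of all IDs. On counts summed per title number the median was 0.34 over the members (0.08 to 0.48, all 10 above 0, against 49.2% of all IDs), with an edgeR adjusted p of 0.80 to 0.93. For 0 of 10 members were all 4 Jak2 V617F libraries above all 4 control libraries (3.5% of all IDs).

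The genotype values rest on which control number is used. Without both libraries of control set A, 0 members were called in either matrix (0% of all IDs were called higher), and the median log2 fold change was −0.09 in elastic and 0.21 in viscous matrix. Slc2a1 was then at −0.08 in elastic and 0.02 in viscous matrix, and Tpi1 at −0.09 and 0.20. Without both libraries of control set B, so that set A alone stood for control cells, the medians were 0.69 in elastic and 0.91 in viscous matrix. In that fit Slc2a1, Hk2, Tpi1 and Pgk1 were called higher in Jak2 V617F cells in each matrix (4 of 10, against 3.48% of all IDs in elastic and 2.44% in viscous matrix). Slc2a1 reached 1.19 in elastic (edgeR adjusted p = 0.0179) and 1.40 in viscous matrix (edgeR adjusted p = 0.0186). Summed counts gave 7 calls without control set B (7.98% of all IDs called higher) and 0 without control set A (0%). Their medians were 0.83 and 0.048. Among the Jak2 V617F libraries, leaving out set A in elastic matrix gave a median of 0.12 in elastic matrix. With 1 control number left, the spread comes from the Jak2 V617F libraries, and these calls set them against 1 control set. Aldoa ran the other way in both matrices, and Gpi1 in viscous matrix, with a higher value without control set A than without control set B.

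**Figure D4:**
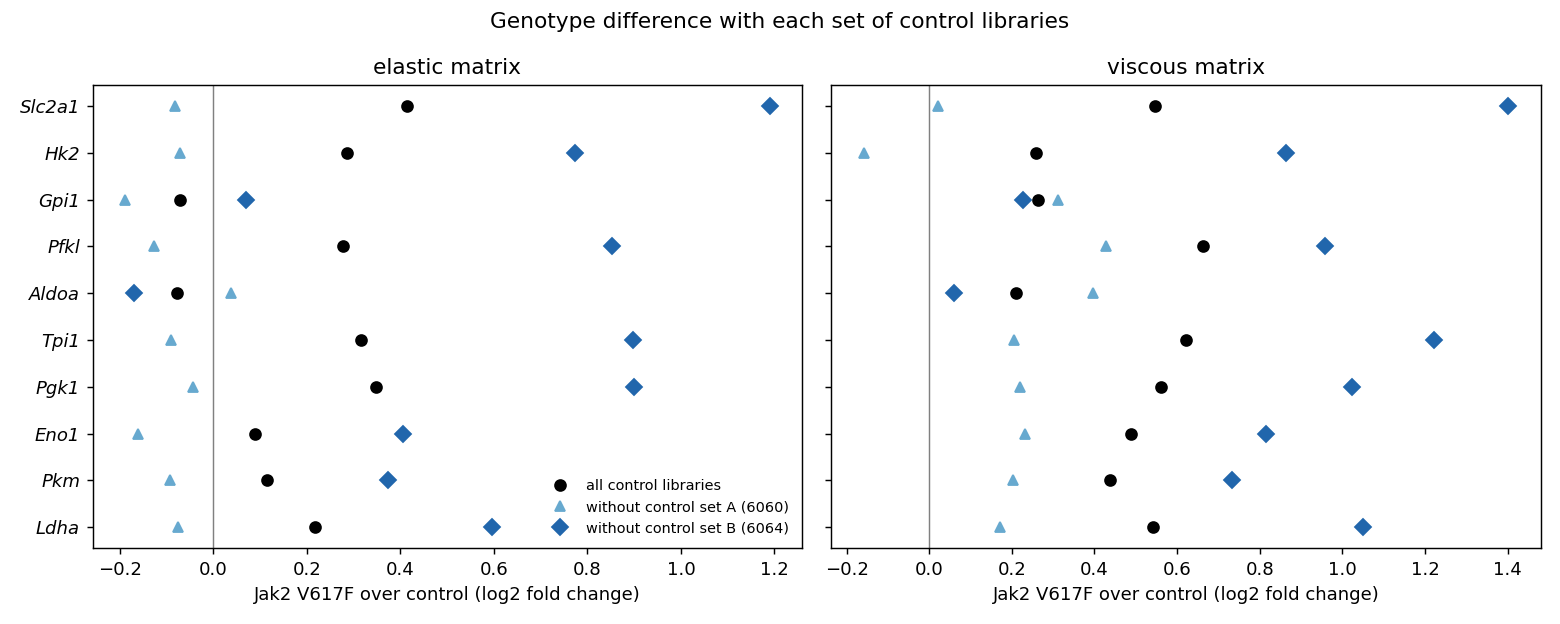
Log2 fold change of Jak2 V617F over control in elastic (left) and viscous matrix (right) with all control libraries (circles), without control set A (triangles) and without control set B (diamonds). Slc2a1 moves most, between −0.08 and 1.19 in elastic and between 0.02 and 1.40 in viscous matrix.

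With all libraries, edgeR called 0 of 10 members in each of the 7 comparisons, where 0% of all IDs were called. At an unadjusted p under 0.05 there were also 0 members in each. The shares of all IDs at that level were 6.28% for matrix over both genotypes, 3.08% in Jak2 V617F and 4.85% in control cells, 1.72% for the difference between these effects, 4.42% between genotypes in elastic and 7.31% in viscous matrix, and 5.22% on summed counts. DESeq2 called 0 members too, where it called 0.906%, 0.237%, 0.216%, 0.0135%, 0.277%, 0.413% and 0.696% of all IDs in the same order. limma-voom called 0 members and 0% of all IDs. The smallest unadjusted edgeR p of a member was 0.0993, for Pfkl between the genotypes in viscous matrix. The test's spread between replicates includes the step between the control numbers. Biological coefficients of variation (edgeR's estimate of the spread between replicates) ran from 0.17 for Gpi1 and 0.18 for Aldoa to 0.37 for Slc2a1, above those of 27.4%, 36.5% and 76.0% of all IDs.

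The IDs whose pattern was most like the members were found by Pearson's r with the members' mean centred log2 CPM, among the 11733 IDs that averaged 50 counts or more. The 3 nearest were ENSMUSG00000018417 (r = 0.99 over 8 libraries, 0.95 over the 6 other than control set A), ENSMUSG00000040152 (0.99 and 0.89) and ENSMUSG00000035105 (0.99 and 0.94). The files give these IDs no names. Over the 8 libraries r rests largely on control set A, and 464 of the 11733 IDs exceeded 0.9. Among the members themselves, r with this mean over 8 libraries was 0.938 (Hk2) to 0.997 (Tpi1) for 8 members, 0.58 for Gpi1 and −0.14 for Aldoa. Over the 6 libraries other than control set A, Hk2 had the lowest value (−0.024) and Pkm the highest (0.998). These libraries share title numbers and each member is part of the mean, so the values are descriptions only.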

How the data were processed

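For the 8 RNA libraries the authors deposited raw whole counts for 17640 Ensembl gene IDs. The tools were Salmon and DESeq2 with build GRCm38, per the submitters' processing notes; versions, order, strand and the step from transcripts to genes are not given in the sources used here. Salmon divides reads shared by near-identical copies by estimation. RefSeq names 3 pseudogenes each after Aldoa, Pgk1 and Ldha, so those counts are less certain. Copies under other names were not searched for. All 8 per-library files equal the series table. RefSeq GRCm38.p6 gave positions for 10 of 10 members by symbol and an Ensembl ID for 0 genes, so planned lists of other pathway, hypoxia and cell type genes were not tested.

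Counts were analysed across all genes with edgeR 4.0.16 in R 4.3.3: filterByExpr by group (14785 IDs; 15239 for sums), TMM scaling, the quasi-likelihood test on 4 group means, two-sided tests and Benjamini-Hochberg adjustment over all IDs, with a call at an adjusted p under 0.05. Genotype was also tested on counts summed per title number (2 sums against 2). SE were derived from the test statistic, intervals cover 95%, and log2 CPM were computed with 2 as prior count. Tests were checked on simulated counts. The simulated libraries were drawn independently, with no difference between title numbers, so that check does not cover the difference between control sets. Alternatives were DESeq2 1.42.0, limma-voom (limma 3.58.1), other scalings and filters, a block, fewer libraries, and libraries left out. All 10 members were named by rule, with values per library for 4 (Slc2a1, Hk2, Pkm and Ldha), which are given here for all 10. Members and lists were chosen with earlier results of these data known. Python 3.11.15 and matplotlib 3.10.9 drew the figures.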

Additional observations from a re-analysis of the deposited data

How the results depend on the processing

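Of 131 counts of called members under 26 alternative settings, 128 stayed at 0. The other 3 left out both libraries of control set B. With libraries or numbers left out, the count was 0 to 4 for genotype in elastic, 0 to 4 in viscous matrix and 0 to 7 on summed counts. The medians so obtained were −0.02 to 0.39 for matrix over both genotypes, −0.06 to 0.11 in Jak2 V617F cells, −0.04 to 0.70 in control cells, −0.67 to 0.11 for the difference of matrix effects, −0.086 to 0.69 for genotype in elastic and 0.21 to 0.91 in viscous matrix, and 0.048 to 0.83 on summed counts. Under the other settings (scalings, filters, tools, blocks, fewer libraries) no count or median changed its call or moved beyond the replicate spread. Scaling moved the median of all IDs by at most 0.022. Of 1310 member values, 1216 kept direction and call, 15 became calls and 79 changed sign, 78 of these with libraries left out; the cause was not tested.

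Log2 fold changes of members that changed sign when libraries were left out ranged as follows. For matrix over both genotypes they were Slc2a1 −0.15 to 0.66, Hk2 −0.14 to 0.39, Gpi1 −0.059 to 0.11, Pfkl −0.017 to 0.47, Aldoa −0.0093 to 0.16, Tpi1 −0.038 to 0.54 and Pgk1 −0.11 to 0.38. In Jak2 V617F cells they were Pfkl −0.14 to 0.31, Aldoa −0.17 to 0.025, Tpi1 −0.069 to 0.25, Pgk1 −0.13 to 0.24, Eno1 −0.14 to 0.074, Pkm −0.035 to 0.10 and Ldha −0.20 to 0.31. In control cells they were Slc2a1 −0.46 to 1.15, Hk2 −0.39 to 0.68, Pfkl −0.10 to 0.86, Tpi1 −0.17 to 0.99 and Pgk1 −0.28 to 0.72. For the difference of matrix effects they were Slc2a1 −0.98 to 0.63, Hk2 −0.57 to 0.50, Pfkl −0.79 to 0.17, Tpi1 −0.90 to 0.26, Pgk1 −0.67 to 0.32 and Ldha −0.83 to 0.045. For genotype in elastic matrix they were Slc2a1 −0.083 to 1.19, Hk2 −0.072 to 0.77, Gpi1 −0.19 to 0.070, Pfkl −0.13 to 0.85, Aldoa −0.18 to 0.038, Tpi1 −0.090 to 0.90, Pgk1 −0.044 to 0.90, Eno1 −0.16 to 0.40, Pkm −0.092 to 0.37 and Ldha −0.074 to 0.60. For genotype in viscous matrix Hk2 was −0.16 to 0.86, and on summed counts Slc2a1 was −0.037 to 1.31, Hk2 −0.11 to 0.83 and Aldoa −0.038 to 0.22. Where 1 library stood for a group, it was assumed to vary like the other groups.

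Deviations from the group means of libraries with the same title number correlated at −0.089 in Jak2 V617F and 0.53 in control cells over all IDs. Over the 10 members the values were −0.29 and 0.91, so libraries of a control set went together for these transcripts. The number is not stated to pair libraries, so the main tests did not use it as a pairing, and a block was an alternative. With the title number as a replicate block, 0 members were called in the 4 matrix comparisons, where the fixed block called 5 of 14785 IDs over both genotypes and 0 in the other 3, and the random block called 2 over both genotypes, 0 in Jak2 V617F cells, 1 in control cells and 0 for the difference. At an unadjusted edgeR p under 0.05 the fixed block had 1 of 10 members over both genotypes (11.9% of all IDs). It had 2 in control cells (9.45%), 0 in Jak2 V617F cells (7.01%) and 0 for the difference (3.59%). The random block had 0 members in each. The fixed block gave medians of 0.18 over both genotypes, 0.05 in Jak2 V617F cells, 0.34 in control cells and −0.32 for the difference. In the difference, Hk2 was at −0.0025. Counting error was at most 1.69% of a value, and each group had 2 libraries.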
